A study of Mus musculus with 6 samples.

Results

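Malat1, Neat1, H19, Gas5, Meg3 and Kcnq1ot1 are 6 long noncoding RNAs (lncRNAs), genes whose transcripts act as RNA rather than as a template for protein. They were taken by name from the table of 30914 genes, by a rule that holds no measured value but was set with earlier results of these data known, and each had 1 entry in it. RNA was measured in the hearts of male wild-type C57BL/6J mice, 8 weeks old at the start, that had all been infused with angiotensin II (Ang II), a peptide hormone that raises blood pressure and enlarges the heart, at 1 μg/kg/min for 4 weeks from osmotic pumps. The 3 mice of the Ang II group received no Tec, and the 3 mice of the Ang II + Tec group received tectochrysin (Tec), a plant flavonoid, at 5 mg/kg by daily intraperitoneal injection in the last 2 weeks. No heart without Ang II was analysed here, so each difference concerns Tec on top of Ang II. Heart tissue was sequenced, and the paper does not say which part of the heart was taken. In such bulk RNA fewer cells of a type and less RNA per cell cannot be told apart. The labels number the hearts without saying more about their origin, and the p-values measure the spread between these samples.

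Malat1 and Neat1 are neighbouring nuclear RNAs. Malat1 gathers in nuclear speckles, the stores of splicing factors, and the long form of Neat1 is the scaffold of paraspeckles, nuclear bodies that hold RNA-binding proteins. H19, Meg3 and Kcnq1ot1 are imprinted, which means that they are transcribed mainly from the chromosome of 1 parent: H19 and Meg3 from the maternal copy, and Kcnq1ot1 from the paternal copy, where it silences its neighbours. H19 is abundant in the fetal heart and is largely shut off after birth. Gas5 carries small nucleolar RNAs (snoRNAs) in its introns and is a transcript that builds up when growth stops.

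According to the labels, poly(A) RNA was isolated on poly-T beads, a step for which the 3′ ends of transcripts matter, although the same protocol also speaks of fractions with or without poly(A), so that the RNA that entered the libraries is not fully settled. The last 60 bases of 3 annotated transcripts are shown because they hold the hexamer that precedes most poly(A) tails (AATAAA or its variant ATTAAA, searched on the transcript's own strand), in capitals. The transcripts are Malat1-201 (19:5795690-5795749, minus strand), the short form Neat1-202 (19:5842307-5842366, minus strand) and H19-202 (7:142575529-142575588, minus strand), from GENCODE M21 on GRCm38.
Malat1-201: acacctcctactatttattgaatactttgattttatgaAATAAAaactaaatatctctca
Neat1-202: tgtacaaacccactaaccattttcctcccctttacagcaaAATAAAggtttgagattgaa
H19-202: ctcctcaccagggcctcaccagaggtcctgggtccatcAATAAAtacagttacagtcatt
Of all 141515 GENCODE transcripts of at least 60 bases, 34.5% hold AATAAA or ATTAAA there. Mature Malat1 is known to end upstream of this annotated end, where RNase P cuts it and a triple helix protects it, so its hexamer does not mark the end of that form. The longest transcripts of Meg3, Gas5 and Kcnq1ot1 hold at least 1 of these hexamers as well.

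The long form, Neat1-201 (20771 bases), holds neither hexamer in its last 60 bases. Its end, too, is known to be cut by RNase P and protected by a triple helix of U-rich motifs and an A-rich tract in place of a poly(A) tail. The last 110 bases (19:5824708-5824817, minus strand) are shown with the U-rich motifs TTTCTTTT and TTGCTTTT and the A-rich stretch AAAAGCAA in capitals.
Neat1-201: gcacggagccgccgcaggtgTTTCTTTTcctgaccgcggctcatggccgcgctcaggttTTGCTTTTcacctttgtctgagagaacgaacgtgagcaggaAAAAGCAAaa
Among 138029 transcripts of at least 110 bases, 1 holds these 3 motifs in that window, Neat1-201 itself. The motifs were spelled as they occur in it, so this count tells nothing about the structure. The annotated end of Malat1-201, which lies past its mature end, holds 0 of the 3. The table gives 1 value for the gene, so the short and the long form were not separated, and the share of the long form that the beads captured was not measured.

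H19 and Meg3 are also the precursors of microRNAs, short RNAs that pair with messages through their seed. The mature arms are shown with the seed (bases 2 to 8) in capitals because the table lists their hairpins as genes of their own. The RefSeq entries lie on GRCm38.p6 at 7:142577112-142577133 (miR-675-5p), 7:142577078-142577099 (miR-675-3p), 12:109563710-109563731 (miR-770-5p) and 12:109563744-109563765 (miR-770-3p).
mmu-miR-675-5p: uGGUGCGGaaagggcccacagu
mmu-miR-675-3p: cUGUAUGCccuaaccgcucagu
mmu-miR-770-5p: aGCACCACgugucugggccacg
mmu-miR-770-3p: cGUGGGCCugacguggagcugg
No pair of these arms shares a seed. Mir675, which lies within an exon of H19, had an FPKM of 0.01 to 0.10 over the 6 libraries, and Mir770, within an exon of a Meg3 transcript, was listed at 0. These libraries, with fragments far longer than a microRNA, do not measure mature microRNAs.

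The deposited values are FPKM, fragments per kilobase of transcript and of the library's mapped total. Read totals were not given, and the spacing of the lowest values put the relative depth of the libraries at 0.871 to 1.22 times their mean. Transcripts of atrial muscle differed among the hearts: Myl7, the atrial myosin light chain, had FPKM of 419 and 332 in Ang II replicates 1 and 2 and 1040 in Ang II + Tec replicate 2, against 0 to 1.58 in the other 3. The summed FPKM of 8 cardiomyocyte markers was 9880 to 12100 with Ang II alone and 10700 to 11900 with Ang II + Tec, with no marker at 0. Ang II replicate 3 lay with the Ang II + Tec hearts for 8 fibroblast markers, whose sum was 825, 1060 and 209 with Ang II alone and 168, 289 and 197 with Ang II + Tec. Over all tested genes the log2 fold changes had a median of -0.17. Of these 13089 genes, 10471 (80%) had a lower mean with Tec and 2618 a higher. Values of single genes and counts by direction are best read against that shift. Scaling the libraries by their median ratios brings the median near 0 by construction (0.00197), and 6498 genes were then lower and 6591 higher. The share of the summed FPKM in mitochondrially encoded genes was 41.3%, 40.1% and 48.9% in the Ang II hearts and 51.3%, 49.6% and 52.5% in the Tec hearts, with no overlap, and the part of this difference in the values below was not tested; with equal sums outside the mitochondrial genome H19 was at -0.98.

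The 6 genes are often listed among the abundant lncRNAs, but only 4 of them were abundant in these libraries (the plot of FPKM per heart). Neat1 had the highest mean over the 6 libraries, at 21.3 FPKM, which placed it at rank 18 among the 6653 lncRNA genes in the table. Malat1 followed at 15.7 FPKM (rank 24), H19 at 11.9 (rank 29) and Gas5 at 7.00 (rank 50). Among all genes listed, 4.65%, 6.25%, 8.13% and 12.8% had a higher mean than these 4. Meg3, at 0.957 FPKM (rank 354 among lncRNAs), and Kcnq1ot1, at 0.025 FPKM (rank 2950), were low. The ranges of Neat1, Malat1, H19 and Gas5 overlapped from each to the next in this order, whereas the lowest Gas5 value (4.91) was above the highest of Meg3 (2.12) and the lowest of Meg3 (0.36) above the highest of Kcnq1ot1 (0.03). Malat1 was below Neat1 in 5 of the 6 hearts, with a ratio of 0.59 to 0.854, and above it in Ang II + Tec replicate 2, with a ratio of 1.05. How much of mature Malat1 and of the long form of Neat1 the beads captured was not measured. The ranks and this ratio therefore describe these libraries and not the RNA content of the hearts.

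**Figure D1:**
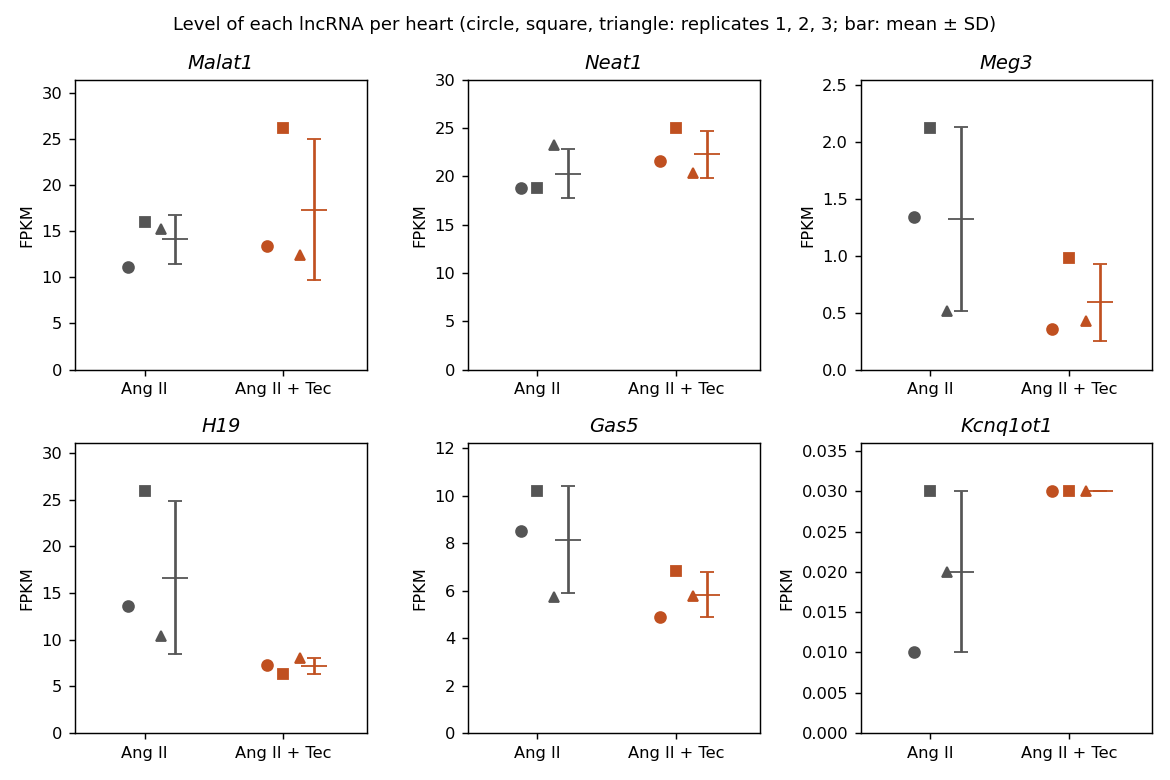
FPKM of the 6 lncRNAs in each heart (circles, squares and triangles are replicates 1, 2 and 3; the bar is the group mean with its SD, n = 3), each panel with its own axis from 0. H19 is the gene whose groups do not overlap: 10.40 to 25.91 with Ang II alone and 6.33 to 8.00 with Ang II + Tec.

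The comparison asked which of these RNAs differed in hearts given Tec. Genes with at least 0.5 FPKM in at least 3 libraries were tested with limma on log2(FPKM + 1), a scale that understates the change of low genes. A call needed a Benjamini-Hochberg adjusted p under 0.05 and a log2 fold change at or beyond 1 in either direction. Of the 6 lncRNAs, 5 were tested and 0 were called, and of all 13089 tested genes 21 were called (0.160%). At an unadjusted p under 0.05, 1 of the 5 passed in limma, H19, against 18.6% of all tested genes. H19 was also the only 1 of the 5 whose groups did not overlap, in the direction lower with Tec, which 18.9% of tested genes showed, while none was higher without overlap, which 2.90% showed. The means of H19, Meg3 and Gas5 were lower with Tec and those of Malat1 and Neat1 higher (the plot of log2 fold changes). With 3 hearts against 3, an exact permutation test of 1 gene cannot give a p below 0.1.

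**Figure D2:**
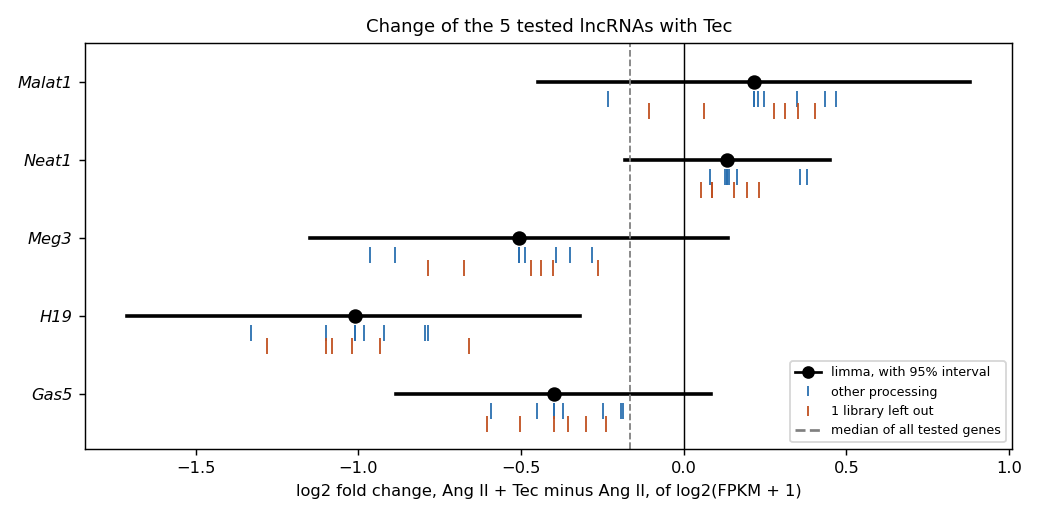
Log2 fold change of the 5 tested lncRNAs (Ang II + Tec minus Ang II, black points, with the 95% interval from limma), with ticks for the same value under other processing (blue) and with 1 library left out (orange); the dashed line is the median of all tested genes, -0.17. The interval of H19 runs from -1.71 to -0.32, and those of the other 4 include 0.

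H19 (ENSMUSG00000000031, 7:142575529-142578143, minus strand) had FPKM of 13.66, 25.91 and 10.40 in the Ang II hearts and 7.28, 6.33 and 8.00 in the Ang II + Tec hearts. Each Tec heart was below each Ang II heart, and the Tec hearts lay close together. The group means were 16.7 ± 8.18 and 7.20 ± 0.838 (SD, n = 3), a ratio of 0.432. The log2 fold change was -1.01 (SE 0.296), with p = 0.0104 and an adjusted p of 0.218 in limma and p = 0.1 in the exact two-sided permutation test, the smallest it can give. The value rested on which Ang II hearts were counted: without Ang II replicate 3 H19 was called (log2 fold change -1.28, adjusted p = 0.0114 in limma), and without Ang II replicate 2 it was -0.66 with an adjusted p of 0.452. With the libraries scaled by their median ratios the log2 fold change was -0.80. Among the 3 hearts with atrial transcripts (1 given Tec) the difference of log2(FPKM + 1) was -1.44 and among the other 3 (2 given Tec) -0.40, values without a test.

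Some transcripts of macrophages and other leukocytes had a profile like that of H19. The 3 genes whose profile over the 6 libraries was nearest to that of H19, by the root mean square (RMS) difference of centred log2(FPKM + 1) among 11047 genes, were Lyz2, Cd53 and Clec4n. Lyz2 encodes the lysozyme of macrophages, Cd53 a surface protein of leukocytes and Clec4n a lectin of myeloid cells. Their RMS differences from H19 were 0.109, 0.124 and 0.139, against a spread of 0.632 in H19 itself. The summed FPKM of 8 macrophage and leukocyte markers, 1 of which is Lyz2, was 255, 405 and 197 with Ang II alone and 146, 138 and 152 with Ang II + Tec. Lyz2 made up most of that sum, and without it the other 7 markers summed to 92.7, 115 and 62.3 with Ang II alone and 39.4, 40.8 and 45.0 with Ang II + Tec, still with no overlap. This was not particular to leukocytes. The sums of 6 endothelial markers (98.7 to 106 against 85.5 to 94.0 with Tec) and of 4 cycling markers (1.70 to 4.87 against 0.51 to 0.70) did not overlap either. Those of the remaining listed cell types overlapped. Of these 8 markers 5 were tested and 0 called. All 5 had a lower mean with Tec and an unadjusted p under 0.05 in limma. Of all 13089 tested genes, 10471 had a lower mean, and 2165 had a lower mean with such a p. Below the filter, Cd79a, a B cell marker, had a higher mean with Tec (0.183 against 0.117 FPKM), and Ptprc and Cd3e a lower. Cd3e, a T cell marker, was at 0 in 2 libraries. The part of these cells in the H19 values was not tested.

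H19 shares its domain on chromosome 7 with Igf2, a fetal growth factor that is expressed from the paternal copy. Igf2 had FPKM of 4.39, 7.10 and 5.80 with Ang II alone and 3.90, 4.34 and 4.21 with Ang II + Tec. Its groups did not overlap, with a log2 fold change of -0.37 (adjusted p = 0.272 in limma). The ratio of H19 to Igf2 was 3.11, 3.65 and 1.79 with Ang II alone and 1.87, 1.46 and 1.90 with Ang II + Tec, so the groups overlapped in it through Ang II replicate 3. Of 8 listed neighbours of H19 the table held 7, of which 6 were tested and 0 called; 5 had a lower and 1 a higher mean with Tec, with a median log2 fold change of -0.34 against -0.17 for all tested genes, or -0.14 with median ratio scaling and the same counts. The most abundant were Ctsd, the lysosomal protease cathepsin D (-0.28), Lsp1, a leukocyte actin-binding protein (-0.64), and Tnnt3, the fast skeletal troponin T (-1.77). The Tnnt3 value rested on Ang II replicate 2, which had 42.41 FPKM against 0.30 to 6.91 in the other 5 libraries, and without that replicate it was -0.51. Another fast skeletal muscle gene, Mylpf, a myosin light chain on the list of skeletal muscle markers, was called higher with Tec, at 0.58, 0.56 and 0.22 FPKM in the Ang II hearts and 4.14, 3.44 and 4.55 in the Tec hearts (log2 fold change 1.80, adjusted p = 0.0142 in limma). That call was lost with no filter and without Ang II replicate 1 or any 1 of the Ang II + Tec replicates, where the adjusted p was 0.0788 to 0.19.

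Meg3 (ENSMUSG00000021268, 12:109541001-109571721, plus strand) had FPKM of 1.34, 2.12 and 0.51 in the Ang II hearts and 0.36, 0.98 and 0.43 in the Ang II + Tec hearts. The groups overlapped: Ang II replicate 3 was below Ang II + Tec replicate 2. The means were 1.32 ± 0.805 and 0.590 ± 0.340 (SD, n = 3), and Meg3 had the widest relative spread of the 5 tested lncRNAs, 5.89-fold from its lowest to its highest heart. The log2 fold change was -0.51 (SE 0.274, adjusted p = 0.330 in limma; exact permutation p = 0.2), with a 95% interval of -1.15 to 0.14. Since Meg3 lies near the pseudocount of 1, the value was -0.96 with a pseudocount of 0.1, and without Ang II replicate 2 it was -0.26. Scaling the libraries by their median ratios gave -0.393. Split as for H19 and with no test, the difference was -0.45 among the hearts with atrial transcripts and -0.12 among those without.

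The order of the 6 hearts in Meg3 was that of the summed fibroblast markers, from Ang II replicate 2 down to Ang II + Tec replicate 1 (the plot of levels relative to their mean). Those markers ran from 209 to 1060 FPKM with Ang II alone and from 168 to 289 with Ang II + Tec, with none at 0. All 8 were tested, all 8 had a lower mean with Tec, 4 had an unadjusted p under 0.05 and 0 were called in limma. Of all 13089 tested genes, 2165 had a lower mean with such a p. The direction held for all 8 markers with median ratio scaling. The genes nearest to Meg3 by profile were Ilk, a kinase at integrin adhesions, Dpp7, a lysosomal peptidase, and Tspan4, a membrane tetraspanin. Their RMS differences were 0.0295, 0.0422 and 0.0441 against a spread of 0.431 in Meg3. Since the scale understates the change of low genes, a near profile need not mean a like range in FPKM. Ilk ran from 10.74 to 24.76 FPKM, whereas Meg3 varied 5.89-fold. Its neighbour Rian, with a mean of 0.717 FPKM, was under the 1 FPKM needed to enter this comparison. The part of fibroblasts in the Meg3 values was not tested.

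**Figure D3:**
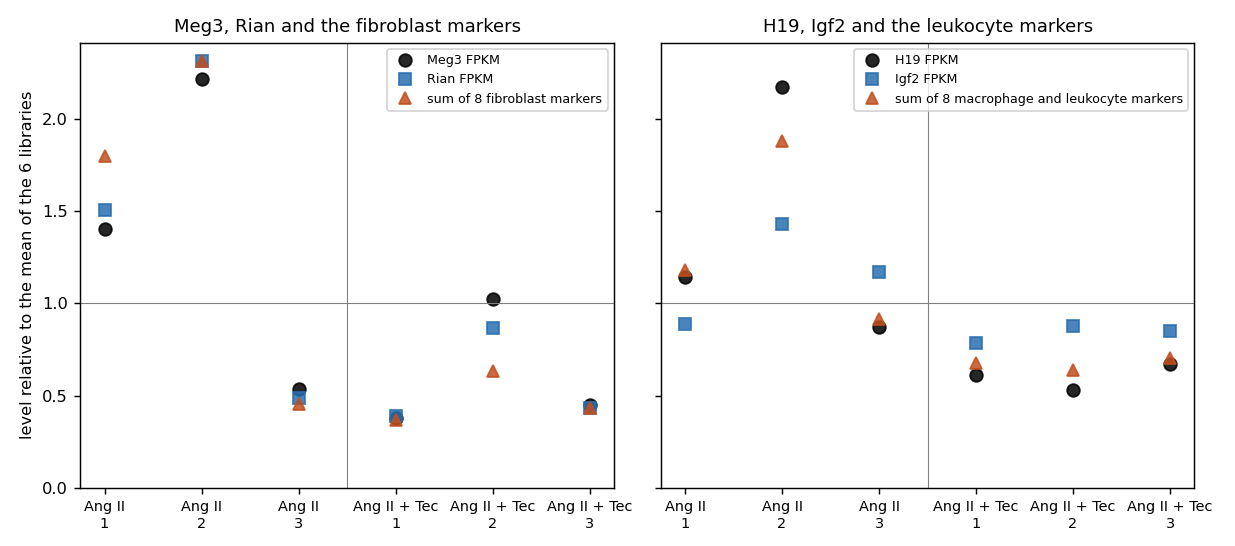
Levels in each library divided by the mean of the 6 libraries, for Meg3, its neighbour Rian and the sum of 8 fibroblast markers (left), and for H19, its neighbour Igf2 and the sum of 8 macrophage and leukocyte markers (right); the vertical line parts the Ang II hearts from the Ang II + Tec hearts. Ang II replicate 2 is highest in all 6 series, and Ang II replicate 3 is near the Ang II + Tec hearts on the left.

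Rian and Mirg are lncRNAs of the same maternal transcription unit as Meg3, hosts of snoRNAs and of microRNAs. Rian had FPKM of 1.08, 1.66 and 0.35 with Ang II alone and 0.28, 0.62 and 0.31 with Ang II + Tec, with a log2 fold change of -0.49 (adjusted p = 0.309 in limma). The ratio of Meg3 to Rian stayed between 1.24 and 1.58 in the 6 hearts, while Meg3 itself varied 5.89-fold. Mirg was at 0.02 to 0.23 FPKM and was not tested, and the small RNA genes Mir1906-1 and Gm27300 inside Meg3 were at 0.01 or less. Of the paternally expressed genes of the domain, Dlk1, a Notch-like membrane protein, had a mean of 0.00667 FPKM. Rtl1, derived from a retrotransposon, had FPKM of 0.01, 0.02 and 0 without Tec and 0.04, 0.06 and 0.03 with it, higher with no overlap but within a few steps of 0.01 FPKM. Dio3, the enzyme that inactivates thyroid hormone, was at 0.32, 0.35 and 0.06 with Ang II alone and 0.03, 0.02 and 0.02 with Ang II + Tec, lower with no overlap and also below the filter. The table held all 8 genes listed for this domain; 3 were tested, 3 had a lower mean with Tec (2 with median ratio scaling) and 0 were called. The most abundant was Ppp2r5c, a phosphatase subunit at the edge of the domain, with a log2 fold change of -0.30, and Wdr25 was at -0.02, a sign that turned with median ratio or quantile scaling.

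Gas5 (ENSMUSG00000053332, 1:161034422-161038539, plus strand) had FPKM of 8.53, 10.19 and 5.75 in the Ang II hearts and 4.91, 6.82 and 5.78 in the Ang II + Tec hearts. The groups overlapped through Ang II replicate 3, which lay among the Tec hearts. The means were 8.16 ± 2.24 and 5.84 ± 0.956 (SD, n = 3), a ratio of 0.716. The log2 fold change was -0.40 (SE 0.206, adjusted p = 0.319 in limma; exact permutation p = 0.3) and the 95% interval ran from -0.88 to 0.08. Leaving out Ang II replicate 3 gave -0.60, leaving out replicate 2 of that group gave -0.24, and the value was -0.19 with the libraries scaled by their median ratios. Split as for H19 and with no test, the difference was -0.40 among the hearts with atrial transcripts and -0.09 among those without.

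The table listed 10 snoRNA entries inside Gas5, Snord47, Snord78 and Snord80 among them and none above 0.05 FPKM, and Zbtb37, a zinc finger gene that overlaps the Gas5 start on the other strand, at 0.46 to 0.65. Whether the counting used strand was not given. Gas5 belongs with the other lncRNAs that host snoRNAs, of which 17 of 18 listed were in the table. Of these, 14 were tested, and 12 had a lower and 2 a higher mean with Tec. In limma 3 had an unadjusted p under 0.05, all lower, as had 2165 of all 13089 tested genes, and 0 were called. Their median log2 fold change was -0.15, near the -0.17 of all tested genes, and with median ratio scaling 7 were lower and 7 higher. The most abundant was Snhg18, at 8.16, 9.61 and 3.83 FPKM with Ang II alone and 3.11, 3.50 and 3.64 with Ang II + Tec, with no overlap and a log2 fold change of -0.82 (adjusted p = 0.229). Snhg6 had -0.50 and Zfas1 -0.15, and the sign of Zfas1 turned with median ratios or quantile scaling. The genes nearest to Gas5 by profile were Bcap31, Rcn2 and Sdf2, which encode proteins of the endoplasmic reticulum, with RMS differences of 0.0249, 0.0291 and 0.0352 against a spread of 0.316 in Gas5.

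Malat1 (ENSMUSG00000092341, 19:5795690-5802672, minus strand) had FPKM of 11.08, 16.04 and 15.26 in the Ang II hearts and 13.43, 26.17 and 12.39 in the Ang II + Tec hearts. The higher Tec mean came from Ang II + Tec replicate 2, and the other 2 Tec hearts were inside the range of the Ang II group. The means were 14.1 ± 2.67 and 17.3 ± 7.67 (SD, n = 3), with a log2 fold change of 0.22 (SE 0.283, adjusted p = 0.651 in limma; exact permutation p = 0.8). The 95% interval was -0.45 to 0.88, and the sign turned without Ang II + Tec replicate 2, to -0.11. Scaling the libraries by their median ratios gave 0.435, and quantile scaling gave 0.467. Among the hearts with atrial transcripts, of which only Ang II + Tec replicate 2 had Tec, the difference was 0.92. Among those without them, of which only Ang II replicate 3 had no Tec, it was -0.23. Neither value has a test.

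Ang II + Tec replicate 2, the heart with the highest Malat1, also had the highest sums of 4 adipocyte markers (45.2 FPKM, against 0.15 to 10.3 in the others) and of 5 mesothelial markers (17, against 0.58 to 11.8). Their part in the Malat1 value was not tested. The genes nearest to Malat1 by profile were the predicted genes Gm47845 and Gm9821 and the pseudogene Ywhaq-ps3, with RMS differences of 0.0973 to 0.142 against a spread of 0.375 in Malat1. Gm27694, a small RNA gene inside Malat1, was at 0 to 0.02 FPKM. The 19 listed proteins of nuclear speckles, where Malat1 resides, were all tested: 13 had a lower and 6 a higher mean with Tec, 0 were called and 0 had an unadjusted p under 0.05 in limma. Their median log2 fold change was -0.13, and with median ratio scaling it was 0.09, with 3 lower and 16 higher. The most abundant were the splicing factors Srsf2 (-0.22), Srsf5 (0.07) and Srsf6 (-0.17), of which Srsf2 and Srsf6 turned sign with median ratios or quantile scaling and Srsf5 in 2 other alternatives.

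Neat1 (ENSMUSG00000092274, 19:5824708-5845478, minus strand) had FPKM of 18.78, 18.79 and 23.20 in the Ang II hearts and 21.59, 25.00 and 20.31 in the Ang II + Tec hearts. It varied least of the 5 tested lncRNAs, 1.33-fold from the lowest to the highest heart, and the groups overlapped. The means were 20.3 ± 2.55 and 22.3 ± 2.42 (SD, n = 3), with a log2 fold change of 0.13 (SE 0.135, adjusted p = 0.558 in limma; exact permutation p = 0.3). The 95% interval was -0.18 to 0.45. The value stayed above 0 in the 16 alternatives run, from 0.05 to 0.38, and it was 0.36 with the libraries scaled by their median ratios. Within the hearts with atrial transcripts the difference was 0.39, and within those without it was -0.14, split as for H19 and with no test.

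Inside Neat1 the table listed 3 small RNA genes on the same strand, Gm27505 at 0.25 to 0.42 FPKM and Gm27533 and Gm28006 at 0.01 or less. The genes nearest to Neat1 by profile were Hey1, a transcription factor downstream of Notch, Jph1, a junctophilin that ties membranes together in muscle, and Cbfa2t3, a transcriptional corepressor, with RMS differences of 0.0329, 0.0341 and 0.0350 against a spread of 0.145 in Neat1. All 16 listed paraspeckle proteins, the partners of Neat1, were tested. Of these, 13 had a lower and 3 a higher mean with Tec, 0 were called and 0 had an unadjusted p under 0.05 in limma, and the median log2 fold change was -0.16, which median ratio scaling turned to 0.04, with 6 lower and 10 higher. The core protein Nono, which binds RNA in paraspeckles, had FPKM of 22.88, 24.06 and 16.64 with Ang II alone and 15.06, 17.33 and 16.38 with Ang II + Tec (log2 fold change -0.35, adjusted p = 0.282). Hnrnpk (-0.24) and Hnrnph1 (-0.13), proteins that bind RNA as it is processed, were the other 2 of the 3 most abundant, and Hnrnph1 turned sign in 3 alternatives, median ratios and quantile scaling among them.

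Kcnq1ot1 (ENSMUSG00000101609, 7:143203458-143296549, minus strand) had FPKM of 0.01, 0.03 and 0.02 in the Ang II hearts and 0.03, 0.03 and 0.03 in the Ang II + Tec hearts. It was below the filter and was not tested. Values are given to 0.01 FPKM, so these are 1 to 3 steps of the table, and the log2 difference of 0.01 and the exact permutation p of 0.4 carry little information. Because the transcript is unspliced and 93092 bases long, 0.03 FPKM corresponds to 2.79 fragments in each 1000000 mapped. No profile could be matched, as its spread (0.0108) was smaller than its RMS difference from the nearest gene, Gm14288 (0.021). Kcnq1ot1 lies inside Kcnq1 on the other strand, and without strand the reads of the pair cannot be told apart where they overlap.

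Kcnq1, a potassium channel of the cardiac action potential, had FPKM of 12.28, 9.28 and 7.60 with Ang II alone and 6.09, 6.38 and 6.25 with Ang II + Tec. Its groups did not overlap, with a log2 fold change of -0.54 (adjusted p = 0.221 in limma). Cdkn1c, which encodes the cell cycle inhibitor p57 and is silenced on the paternal copy, went the other way, at 6.78, 6.91 and 7.26 with Ang II alone and 11.92, 10.99 and 12.90 with Ang II + Tec. Its log2 fold change was 0.69 (SE 0.108, adjusted p = 0.102 in limma), not called, and it stayed between 0.64 and 0.92 in the 16 alternatives run. The table held all 11 genes listed for the domain, of which 6 were tested: 5 had a lower and 1 a higher mean, 0 were called and the median log2 fold change was -0.39 (the plot of the 3 imprinted domains), or -0.18 with median ratio scaling and the same counts. The most abundant were Cd81, a tetraspanin (-0.45), and Nap1l4, a histone chaperone (-0.47, groups without overlap). The other 2 tested were Osbpl5, a lipid transfer protein (-0.33, and -0.11 without Ang II replicate 2), and Tssc4 (-0.29, and -0.07 with quantile scaling). Ascl2, Phlda2, Slc22a18, Trpm5 and Tspan32 were too low to test, with means below 0.2 FPKM.

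**Figure D4:**
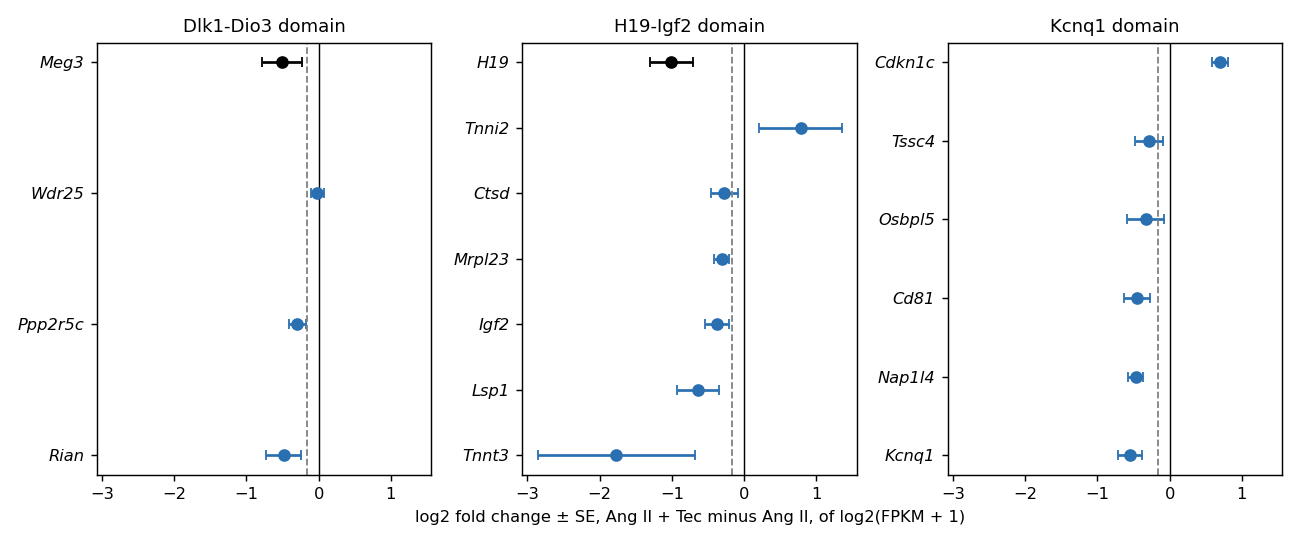
Log2 fold change (Ang II + Tec minus Ang II) with its SE from limma for the tested genes of the Dlk1-Dio3, H19-Igf2 and Kcnq1 domains, with Meg3 and H19 in black; the dashed line is the median of all tested genes. Kcnq1ot1 was not tested and is not drawn. Cdkn1c (0.69) and Tnni2 (0.78, with a wide SE) lie above 0, and the other tested neighbours below it.

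Of 22 other imprinted genes listed, 21 were in the table and 15 tested, with 11 lower and 4 higher means. In limma 3 had an unadjusted p under 0.05, all lower, as had 2165 of all 13089 tested genes, and 0 were called. The median log2 fold change was -0.08, which median ratio scaling turned to 0.08, with 5 lower and 10 higher. The most abundant were Gnas, a G protein subunit (-0.08, which turned sign with median ratios or quantile scaling), Snrpn, a spliceosome protein (-0.48), and Blcap (-0.05, which turned sign in 6 alternatives). Among 30 other named lncRNAs, 26 were in the table and 11 tested: 7 had a lower and 4 a higher mean, 0 had an unadjusted p under 0.05 in limma and the median was -0.09, which median ratio scaling turned to 0.07, with 4 lower and 7 higher. Mhrt, a cardiac lncRNA antisense to Myh7, had FPKM of 21.05, 17.85 and 64.29 with Ang II alone and 26.63, 34.99 and 44.80 with Ang II + Tec, with a log2 fold change of 0.25 that turned sign without Ang II replicate 2 and with a term for atrial transcripts in the fit. 2900097C17Rik (0.11) and Oip5os1 (-0.02) were the other 2 of the 3 most abundant, and both turned sign in at least 1 alternative.

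Across all 611 lncRNA genes tested, 382 had a lower and 229 a higher mean with Tec. Of all 13089 tested genes, these numbers were 10471 and 2618. The median log2 fold change of the lncRNA genes was -0.06 against -0.17 for all tested genes. With median ratio scaling 244 of the 611 were lower and 367 higher. In limma 1 of the 611 was called, near the share of 0.160% called among all tested genes. This was Gm49980, at 4.16, 3.86 and 3.63 FPKM with Ang II alone and 1.26, 1.5 and 0.85 with Ang II + Tec (log2 fold change -1.16, adjusted p = 0.0481). Its call, like that of every gene, was lost when any 1 of the Ang II + Tec libraries was left out. Gm42031 had an adjusted p of 0.0234 with a log2 fold change of -0.99, just short of the fold limit. Both were named after their values were seen. Of the 5 tested members, H19 came closest to a call, with a log2 fold change past the fold limit and an adjusted p of 0.218.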

How the data were processed

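RNA of 6 mouse hearts was sequenced in pairs of reads. The labels name poly-T beads but also speak of fractions with or without poly(A). According to the paper, reads were trimmed with Cutadapt, reads with poly(A) or poly(G) were removed and quality was checked with FastQC. The submitters' processing notes name Bowtie 0.12.2, HISAT2 2.0 and StringTie 1.3.0 and the build mm8, without their roles, while the coordinates of 27947 of 30832 genes shared with GENCODE M21 (90.6%) are those of GRCm38. The labels name a NovaSeq and the paper a HiSeq. The authors deposited FPKM to 0.01 for each gene and library. Because read numbers cannot be had from FPKM, count models and counting intervals were left out.

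Values of log2(FPKM + 1) were fitted with limma 3.58.1 in R 4.3.3 (eBayes with a trend), with Benjamini-Hochberg adjustment over the 13089 genes with at least 0.5 FPKM in at least 3 libraries. The fit was tested on simulated data with independent noise for each gene, which cannot show how deviations shared across a library affect the calls. The difference of means of each member was also tested with an exact two-sided permutation test. Tables were handled with pandas 2.3.3 and plots drawn with matplotlib 3.10.9. Named are the 6 members, their overlapping genes and domain neighbours, the 3 most abundant genes of each list, any list gene with an adjusted p under 0.05, and the 3 genes nearest to each member by profile with a mean of at least 1 FPKM (for Kcnq1ot1 only the nearest is reported here); a few others were picked with their values in view. Members and lists were chosen with earlier results of these data known. Alternatives changed the pseudocount, the filter, the scaling, the replicate block, the variance estimate and the library weights and left out each library; a term for atrial transcripts (Myl7 of at least 100 FPKM) was added after seeing the data. The study's other assays were not analysed here.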

Additional observations from a re-analysis of the deposited data

How the results depend on the processing

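Neat1, Meg3 and Gas5 kept their sign and stayed uncalled in all alternatives that could be fitted for them. The fit of array weights ended with a convergence warning, so its values carry that doubt. Malat1 turned from 0.22 to -0.23 with array weights, and leaving out 1 library gave -0.11 to 0.41; it was below 0 without Ang II + Tec replicate 2 only. H19 became called with array weights (-1.33, adjusted p = 0.0271 in limma) and without Ang II replicate 3, and leaving out 1 library gave -1.28 to -0.66; over its alternatives the adjusted p ran from 0.0114 to 0.646. Meg3 (adjusted p = 0.0268) and Gas5 (0.0249) passed the adjusted p but not the fold limit without Ang II replicate 3, and likewise with array weights (0.0319 and 0.0423). Kcnq1ot1 moved from 0.01 to 0.12 with a pseudocount of 0.1, with no test. The count of called genes, 21, was 3 with no filter, 11 with at least 1 FPKM in all 6 libraries, 522 with array weights and 13 with the term for atrial transcripts (chosen after seeing the data), and 0 to 544 with 1 library left out: 544 when Ang II replicate 3 was dropped, 3 and 6 when Ang II replicates 1 and 2 were, and 0 when any 1 of the Ang II + Tec libraries was (1219, 2324 and 1172 genes at an unadjusted p under 0.05). The causes were not tested.

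The replicate block gave 22 calls and no change of call for a member (adjusted p of 0.126 for H19 and 0.14 for Meg3). Deviations of same-numbered hearts from their group means correlated at -0.0394, 0.429 and 0.379. Ang II replicates 2 and 3 correlated best with the Ang II + Tec heart of their own number, and Ang II replicate 1 with Ang II + Tec replicate 2 (0.212). These correlations do not settle whether the hearts were paired. The labels name no shared origin, so the numbers were not taken as pairs. Meg3 could not be fitted with at least 1 FPKM in all libraries, and Kcnq1ot1 was fitted only with no filter. Values of 0.01 FPKM limit Kcnq1ot1, and 3 hearts a group limit the others.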
